A study of Drosophila melanogaster with 9 samples.

Results

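Described here are 137 genes of *Drosophila* S2 cells with a lower transcript level in all 6 knockdown libraries than in any of 3 controls. They were taken as coding because their identifiers start with CG, although the member CG18228 is annotated as a pseudogene in RefSeq. S2 cells are a hemocyte-like line derived from embryos. Cultures were transfected with 1 µg of double-stranded RNA (dsRNA) and their total RNA was sequenced on day 3. The dsRNA targeted HP1a in 3 libraries (HP1a RNAi), Su(var)3-9 in 3 (Su(var)3-9 RNAi) and GFP in 3 more, which serve as the control. All 9 libraries thus came from cells that received dsRNA, and the 3 control libraries serve both knockdown groups. Su(var)3-9 methylates histone H3 at lysine 9 in heterochromatin, and HP1a binds the methylated histone. The study asked how their loss affects genes that lie in pericentromeric heterochromatin, whereas the genes below were taken from the whole coding transcriptome.

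The members were selected on the measured levels themselves. TPM, the length-normalised transcript abundances estimated by the authors, of the 14088 coding genes were rescaled to a total of 1000000 in each library, and all levels below are in this unit, called rescaled TPM. A member had a control mean of at least 10, a highest knockdown value below its lowest control value, and a log2 ratio of the mean of the 6 knockdown libraries to the control mean at or under -0.58. Of 6182 coding genes with a control mean of at least 10, 292 (4.72%) had all 6 knockdown values below every control value and 266 (4.3%) had all 6 above. With the ratio added, 144 genes (2.33%) met the rule, against 33 (0.534%) with all 6 above and a log2 ratio of at least 0.58. Both counts kept the floor of 10 on the control mean. Genes that rose from a lower control mean were thus not counted, whereas falling genes could drop under 10. The counts are therefore not a like comparison of falls and rises. Of the 144 genes, the 7 that encode Hsp70 or small heat shock proteins were left out, which gave the 137 members. Because the rule used the control and both knockdown groups, every difference from the control is a description and carries no test. Fewer cells with a transcript and less of it per cell cannot be told apart in these bulk samples. TPM keep no record of sequencing depth, so the depth behind each value is unknown and no counting interval can be given.

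The libraries showed a limit that touches all values below. The gene for HP1a (CG8409) stood at 539 ± 51.8 (SD, n = 3) in the control and at 3145 ± 559 where the label was HP1a RNAi. The identifier CG6476, which covers Su(var)3-9 together with eIF2gamma, stood at 3219 ± 721 in the libraries labelled Su(var)3-9 RNAi and at 233 ± 12.5 in the control. Each target was therefore higher in the libraries that carry its name. In the other knockdown group CG8409 had a mean of 514 and CG6476 of 259, so each rise was seen in its own group. The study assessed its knockdowns by protein, which these RNA values do not measure. Coding genes held 15.3%, 10.9% and 15.1% of TPM in controls 1 to 3. This share, on which the rescaling rests, was 10.4%, 10.2% and 11.1% in HP1a RNAi and 9.70%, 10.5% and 14.2% in Su(var)3-9 RNAi. Correlations of log2 levels between libraries ranged from 0.943 to 0.984 over the 6182 genes. All 8 hemocyte markers were detected in every library, with a summed level of 1272 to 1747 in the control, 1223 to 1333 in HP1a RNAi and 1481 to 1717 in Su(var)3-9 RNAi. SPARC alone, at 857 to 1395 over all libraries, made up most of these sums. The 4 neuronal markers summed to 7.72 to 10.9 in the control, 4.14 to 5.20 in HP1a RNAi and 3.20 to 7.86 in Su(var)3-9 RNAi, mostly from elav (1.71 to 7.75). The 4 muscle markers summed to 11.8 to 19.3, 9.71 to 15.1 and 10.5 to 13.5. Nearly all of the muscle sum was Mef2, at 9.32 to 19.1, and Mlc1 was at 0 in all libraries. The 3 germline markers summed to 41.3 to 52.9, 84.2 to 96.8 and 55.0 to 62.8. Most of this was aub, at 32.5 to 44.8, 78.0 to 89.3 and 45.8 to 52.7. The others did not rise in HP1a RNAi: bam was at 6.32 to 8.39 in the control and 3.15 to 7.32 in HP1a RNAi, and vas was at most 0.652 in any library. The part of any of these in the results was not tested.

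Some of the members encode proteins that act on other messages or on other proteins. Cytoplasmic poly(A)-binding protein coats the tails of messenger RNAs and promotes their translation, and heterogeneous nuclear ribonucleoproteins accompany transcripts from transcription to decay. Protein kinase A is freed by cyclic AMP, which adenylyl cyclases make, and then phosphorylates enzymes and transcription coactivators. Glutathione S-transferases and cytochrome P450 enzymes modify foreign and oxidised compounds. Hemocytes, the blood cells of insects, use the Toll and Imd immune pathways. In the Toll pathway extracellular proteases start a cascade that serpins hold in check.

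Together the members took 1.26%, 1.35% and 1.37% of the coding total in the 3 controls. Their share was 0.747%, 0.829% and 0.688% in HP1a RNAi, and 0.702%, 0.698% and 0.852% in Su(var)3-9 RNAi. The median log2 ratio to the control was -0.78 in HP1a RNAi (0.02 over all 6182 genes) and -0.86 in Su(var)3-9 RNAi (-0.02 over all). Over the 6 libraries the members ranged from -2.39 to -0.58, with a median of -0.78, and 41 members were at -1 or lower. Most were moderately expressed. Their control mean had a median of 32.2, beside 43.4 over all 6182 genes, with 38 members under 20 and 27 at 100 or more. Gene lengths, as the authors' software gave them, had a median of 2019 bases against 1877 over all genes, and 10 members (7.30%, against 8.28% of all) were under 700 bases.

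**Figure D1:**
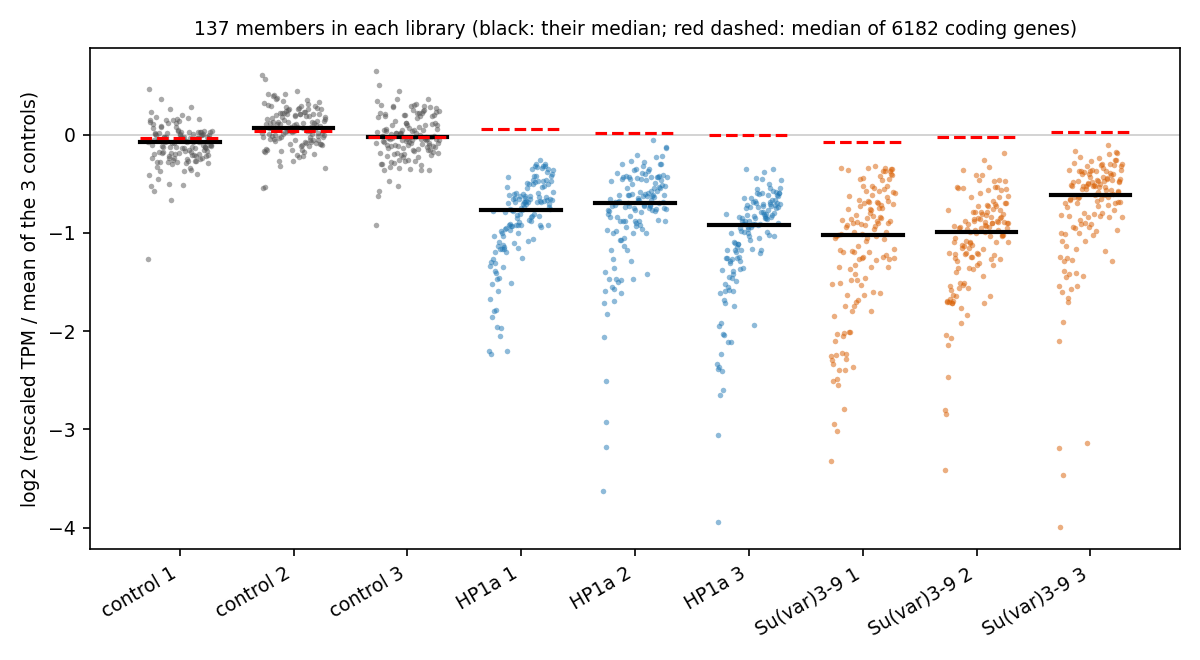
Log2 ratio of each member's rescaled TPM to the mean of the 3 controls, by library; dots are genes, black lines the members' median and red dashed lines the median of 6182 coding genes, and values of 0 (3 members) cannot be drawn. The members' medians lie at -0.69 to -0.92 in the HP1a RNAi libraries and at -0.61 to -1.02 in the Su(var)3-9 RNAi libraries, and those of all genes lie close to 0.

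The gap between the groups was narrow for many members. The lowest control value exceeded the highest knockdown value by a median factor of 1.18, and by 2.18 at most, in CG12560. After it came CG32115 (1.97), Hsp68 (1.95), Cyp9c1 (1.87), Drat (1.81) and CG3397 (1.79). The members just inside the threshold were CanA-14F, a catalytic subunit of the phosphatase calcineurin, and alph, a phosphatase that acts on Ras signalling, with log2 ratios of -0.59 and -0.58, and CG9286 at -0.58. Just outside it were CG33111 and Rcd2 at -0.57 each and the constitutive chaperone gene Hsc70-4, also at -0.57. On the TPM as deposited 314 genes met the rule, and 122 of them were members. Without control replicate 1 the rule gave 223 genes, and without control replicate 3 it gave 225.

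Genes for RNA-binding proteins included the most abundant member. The lists of genes used from here on were drawn up with earlier results of these data known, so their counts are not independent of the values, and they are set beside the 2.33% of all genes that met the rule and the 4.72% that lay below in all 6 libraries. Of 31 regulators of messenger RNA with a control mean of at least 10, 6 were members and 8 in all lay below the control in all 6 libraries, while 1 lay above it. The list's median log2 ratio was -0.19, beside 0.00 over all 6182 genes. The members were pAbp, Unr, Syp, Hrb27C, eIF4H1 and Pabp2.

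The member with the highest level was pAbp (CG5119), the gene for cytoplasmic poly(A)-binding protein. Its level was 1752, 1741 and 1720 in controls 1 to 3, against 653, 969 and 540 in HP1a RNAi and 427, 531 and 792 in Su(var)3-9 RNAi. The controls were nearly equal, whereas the replicates of each knockdown group were spread widely, and the mean of the 6 libraries was 2.67-fold lower than that of the control. Its transcripts moved alike: the 4 that carried most of the gene, CG5119-RG, -RF, -RD and -RH, were each below the control in all 6 libraries. CG5119-RG made up 38.0% of the gene in the control, 41.5% in HP1a RNAi and 38.9% in Su(var)3-9 RNAi.

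Unr (CG7015) encodes a cold shock domain protein that regulates translation and, with Sex-lethal, represses the dosage compensation gene msl-2. It had the second lowest ratio of all members, at -2.30, or 4.94-fold lower. Its controls were far apart, at 28.3, 45.5 and 15.8. The values were 9.35, 9.12 and 3.60 in HP1a RNAi and 2.99, 4.27 and 6.95 in Su(var)3-9 RNAi. The rule required them to lie below the controls, and the lowest control was 1.69-fold above the highest of them. Syp (CG17838) encodes the fly Syncrip protein, which binds messenger RNA and affects its localisation and translation. Its controls were close, at 48.4, 50.6 and 46.1, with 17.4, 34.8 and 16.0 in HP1a RNAi and 8.25, 14.7 and 17.8 in Su(var)3-9 RNAi.

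The other RNA-binding members changed less. Hrb27C, a heterogeneous nuclear ribonucleoprotein, stood at 394 ± 30.7 in the control, 253 ± 64.0 in HP1a RNAi and 186 ± 74.5 in Su(var)3-9 RNAi. The translation initiation factor gene eIF4H1 was 1.99-fold lower over the 6 libraries, and the nuclear poly(A)-binding protein gene Pabp2 was 1.64-fold lower. Also among the members were eIF4EHP, a cap-binding protein that represses translation, vig, a component of the RNA interference complex, mei-P26, a TRIM-NHL translational regulator of the germline, and prage, a ribonuclease involved in the clearance of maternal messages. These were named for their roles after their values had been seen, with log2 ratios of -0.71, -0.62, -1.17 and -0.67. All 10 genes of this group had a lower mean in Su(var)3-9 RNAi than in HP1a RNAi, with median log2 ratios to the control of -1.13 and -0.73. Over all 6182 genes, 36.6% were lower in HP1a RNAi, and genes that share libraries are not separate evidence of a difference.

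Several listed RNA regulators outside the members had low means but overlapped the control. Imp, a messenger RNA-binding protein gene, had a log2 ratio of -1.11, the Argonaute gene AGO1 -0.88 and sqd, a nuclear ribonucleoprotein, -0.65. Fmr1, the fly fragile X gene, lay below the control in all 6 libraries at -0.46, and so fell short of the ratio. Of 27 translation factors only eIF4H1 was a member, and of 82 cytosolic ribosomal protein genes none was, with 0 below and 4 above the control in all 6 libraries.

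**Figure D2:**
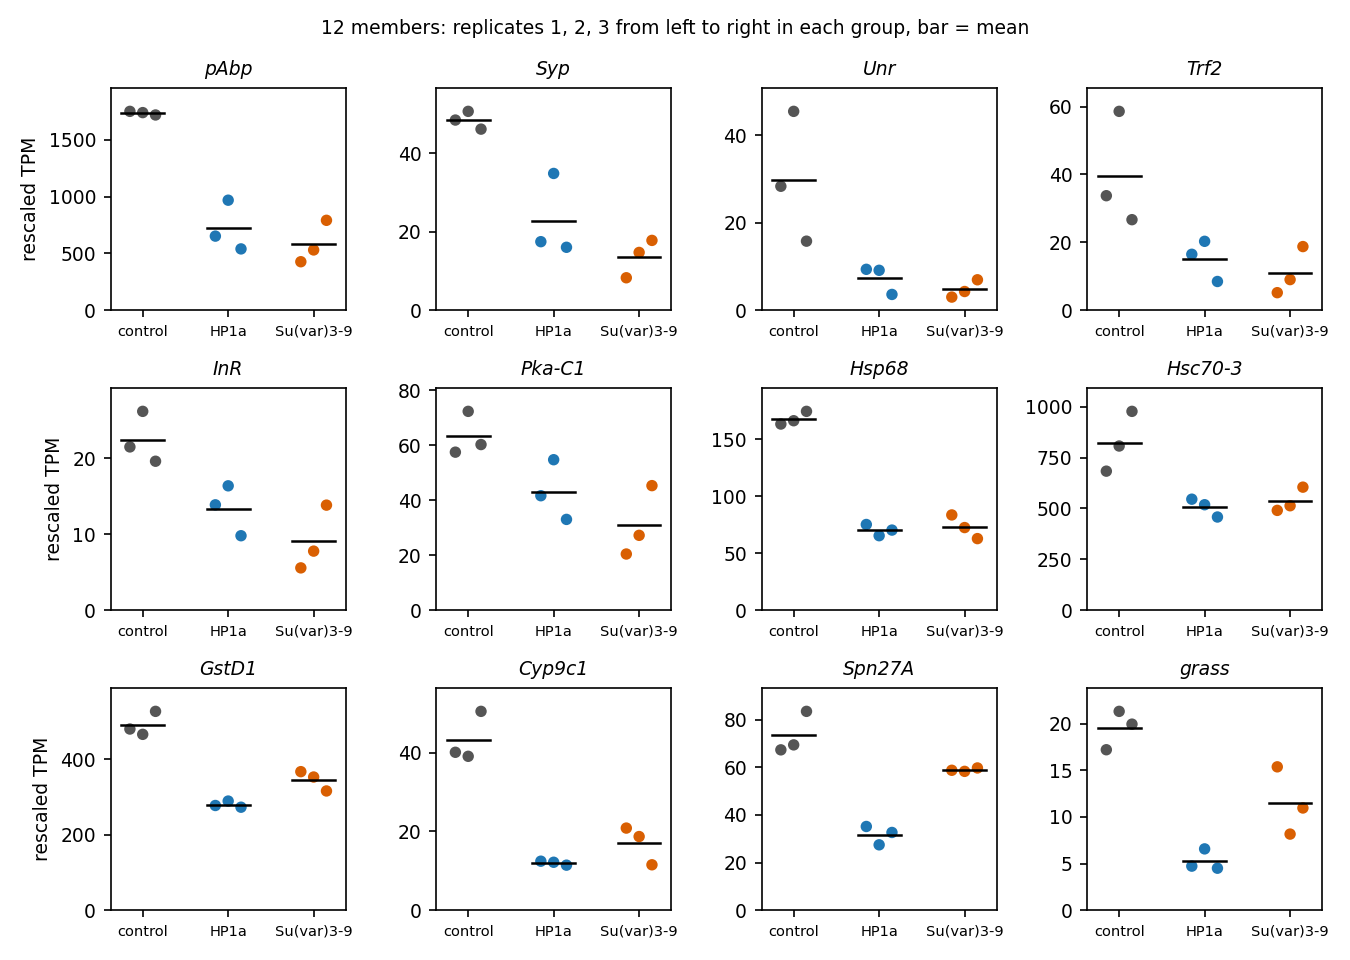
Rescaled TPM of 12 members in every library; each panel has its own axis from 0, dots are replicates 1, 2 and 3 from left to right in each group and bars are group means. In pAbp, Syp and InR the values of HP1a RNAi replicate 2 and Su(var)3-9 RNAi replicate 3 are the highest of their groups, while in Hsp68 they are the lowest.

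Transcription regulators gave 11 members, again grouped by role after the values were known. The lowest was Trf2, a TBP-related factor that directs transcription from promoters without a TATA box. It stood at 33.7, 58.6 and 26.7 in the controls, 16.5, 20.3 and 8.45 in HP1a RNAi and 5.16, 9.01 and 18.7 in Su(var)3-9 RNAi, a 3.05-fold lower mean over the 6 libraries. Mnt, which encodes a Max-binding antagonist of Myc, had 24.1, 25.0 and 18.2 in the controls against 4.23 to 12.8 in HP1a RNAi and 4.74 to 9.20 in Su(var)3-9 RNAi.

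The remaining members of this role covered several pathways. The log2 ratio was -1.46 for tna, a SUMO ligase-like partner of the Brahma remodelling complex, -1.17 for Ssdp, a cofactor of LIM-domain regulators, and -1.09 for the corepressor gene Smr. It was -0.98 for the Krüppel-like factor gene luna, -0.80 for gce, a juvenile hormone receptor, and -0.77 for emc, an antagonist of basic helix-loop-helix proteins. The values were -0.73 for bowl, -0.72 for Crtc and -0.62 for cnc, the regulator of the oxidative stress response. The level was lower in Su(var)3-9 RNAi than in HP1a RNAi in all 11. Over all 6182 genes, 36.6% were lower in HP1a RNAi, and the 11 genes share libraries, so they are not separate evidence. Among 43 listed chromatin and transcription regulators the only member was LamC, the A-type lamin, at 21.4 ± 6.25, 10.5 ± 0.762 and 11.1 ± 2.36 in the 3 groups, and 1 of the 43 lay above the control in all 6 libraries.

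Signalling genes formed the largest role among the members, with 15 genes. Roles were assigned to members only, so the share of any role over all 6182 genes is unknown and no role can be called frequent. InR, the insulin receptor, was at 21.5, 26.2 and 19.6 in the controls. It was at 13.9, 16.4 and 9.80 in HP1a RNAi and at 5.57, 7.78 and 13.8 in Su(var)3-9 RNAi, or 2.00-fold lower over both groups. It was the only member among 29 listed cell cycle and growth genes. The gene scyl, whose product restrains growth through the TOR pathway, was 2.57-fold lower, with controls of 63.5, 60.6 and 43.7 and knockdown values between 10.6 and 33.7.

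Genes of the cyclic AMP pathway recurred among the members. The pathway list was drawn up after the members were known, so it supports nothing about the pathway. Of 13 of its genes with a control mean of at least 10, 6 were members and 7 lay below the control in all 6 libraries, and the list's median was -0.53. The members came from several steps: the adenylyl cyclases rut and Ac78C, the G-protein subunit Gbeta13F, the catalytic (Pka-C1) and regulatory (Pka-R2) subunits of protein kinase A, and the coactivator Crtc.

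Pka-C1 was at 57.5, 72.3 and 60.2 in the controls, 41.6, 54.7 and 33.0 in HP1a RNAi and 20.4, 27.2 and 45.3 in Su(var)3-9 RNAi. Gbeta13F had the highest level of the 6, with 332 ± 13.8 in the control, 206 ± 45.9 in HP1a RNAi and 173 ± 60.5 in Su(var)3-9 RNAi. The lower adenylyl cyclase gene, rut, was near the floor of the rule, with a control mean of 10.7. Other genes of the pathway did not follow. The log2 ratio was 0.16 for Galphas, 0.12 for Ggamma1 and -0.01 for Pka-R1, the other regulatory subunit. CrebB lay below the control in all 6 libraries at -0.35.

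The other signalling members included sgg (glycogen synthase kinase 3), Tlk (Tousled-like kinase), Gyc76C (a receptor guanylyl cyclase), kek1 (an inhibitor of the EGF receptor) and cv-2 (a BMP-binding protein). Their log2 ratios lay between -0.63 and -0.61. In 14 of the 15 signalling genes the mean was lower in Su(var)3-9 RNAi than in HP1a RNAi. The share of genes that were lower in HP1a RNAi was 37.2% over all members and 36.6% over the 6182 genes, so the lower level in Su(var)3-9 RNAi was also the commoner order in the transcriptome.

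Membrane, adhesion and vesicle proteins added 9 members. Among them were fax, a membrane-associated protein of axons, with controls of 456, 492 and 455 and knockdown values from 153 to 451. The syntaxin gene Syx1A, which serves membrane fusion, ranged from 47.5 to 60.4 in the controls and from 10.1 to 44.3 in the 6 knockdown libraries. The proteoglycan gene Sdc (syndecan) was at -0.89 and the endocytic receptor gene mgl (megalin) at -0.88. None of 34 cytoskeletal genes, 34 genes of membrane traffic or 15 matrix and hemocyte genes was a member, and at 2.33% of all genes lists of this size would often hold none.

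Detoxification and redox enzymes made up 11 members. GstD1, the glutathione S-transferase known for DDT breakdown, was at 479, 465 and 526 in the controls. It was at 277, 289 and 272 in HP1a RNAi and at 367, 352 and 315 in Su(var)3-9 RNAi. The rule separates every member's knockdown values from its controls. Here the HP1a RNAi values also lay below those of Su(var)3-9 RNAi, and how common this order is over all genes was not computed. GstE6 was the second most abundant member, with 1058 ± 35.2, 651 ± 35.9 and 746 ± 89.9 in the same order. GstO3 had a log2 ratio of -0.60 and GstD7 of -1.02, and GstD7 was listed at 0 in Su(var)3-9 RNAi replicate 3.

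Both families were also counted whole, beside a median log2 ratio of 0.00 over all 6182 genes. Of 24 Gst genes with a control mean of at least 10, 4 were members, 5 lay below the control in all 6 libraries and 0 above, and the family median was -0.36. Of 16 cytochrome P450 genes, 3 were members, 7 lay below and 0 above, and the median was again -0.36. Some genes of the families had a higher mean than the control, such as GstE13 at 0.26 and Cyp310a1 at 0.19, and no test was run on either family. Members of both families are similar in sequence and often lie in clusters, so reads may have been divided among copies and single genes are less certain.

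Cyp9c1 had the lowest ratio of its family. It was at 40.1, 39.0 and 50.5 in the controls, 12.4, 12.2 and 11.4 in HP1a RNAi and 20.8, 18.7 and 11.5 in Su(var)3-9 RNAi, 2.98-fold lower over the 6 libraries. Cyp6a8 was at 33.6, 35.1 and 31.0, then 8.48, 10.3 and 11.3, then 18.2, 12.6 and 25.9. Its HP1a RNAi values lay below those of Su(var)3-9 RNAi, with 11.3 and 12.6 the closest. Cyp12a5 had a ratio of -0.68. Other members of this role were MsrA, which repairs oxidised methionine, the peroxiredoxin gene Prx6c, the aldo-keto reductase gene Akr1B and the esterase gene alpha-Est10.

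Among 20 listed genes of oxidative and metal stress, GstD1 and cnc were members and 5 lay below the control in all 6 libraries, with a median of -0.11. The others below were Gclc, a subunit of the enzyme that limits glutathione synthesis (-0.44), the ferritin gene Fer1HCH (-0.45) and Prx2 (-0.27). The antioxidant enzymes Cat at -0.01, Sod1 at 0.04 and Sod2 at -0.04 stayed near 0. In 8 of the 11 detoxification and redox members the mean was lower in HP1a RNAi, against 36.6% of all 6182 genes. This was the reverse of the order in the RNA-binding, transcription and signalling members, and it was not tested.

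Metabolic enzymes gave 9 members. Gabat, the GABA transaminase, was at 137, 140 and 132 in the controls, 71.9, 74.1 and 74.4 in HP1a RNAi and 100, 54.2 and 101 in Su(var)3-9 RNAi. The log2 ratio was -1.05 for fbp (fructose bisphosphatase), -0.86 for Glyp (glycogen phosphorylase), -0.60 for Oat (ornithine aminotransferase) and -0.63 for Galt, an enzyme of galactose breakdown. No member came from 17 genes of lipid and sterol synthesis or from 14 of glycolysis and sugar uptake.

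Chaperones outside the excluded heat shock genes gave 2 members. Hsp68, a stress-inducible relative of Hsp70, was at 163, 166 and 175 in the controls, 75.2, 65.4 and 70.3 in HP1a RNAi and 83.6, 72.6 and 62.8 in Su(var)3-9 RNAi, 2.35-fold lower. The knockdown values lay far below the controls with little spread. Its sequence resembles that of the Hsp70 genes, so some reads may have been shared. Hsc70-3, the BiP chaperone of the endoplasmic reticulum, was at 822 ± 148, 507 ± 44.8 and 536 ± 60.4.

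Of 15 genes of the endoplasmic reticulum list 4 lay below the control in all 6 libraries, and those other than Hsc70-3 missed the ratio. They were Gp93 at -0.40, Calr (calreticulin) at -0.40 and Cnx99A (calnexin) at -0.37. Atf6 was low on average at -0.94 but overlapped the control, and Xbp1 stood at 0.00. Among 15 cytosolic chaperones and heat shock factor targets 4 lay below, with Hsp68 the only member. The 7 excluded heat shock genes had log2 ratios between -1.79 and -0.80.

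Immune genes gave 7 members. In the Toll pathway, PGRP-SA recognises bacterial peptidoglycan, the protease grass relays the signal and the serpin Spn27A blocks melanisation. Of 21 Toll and Imd genes with a control mean of at least 10, a list made after the members were known, 5 were members and lay below the control in all 6 libraries. They were grass, Spn27A, PGRP-SA, Tollo (a Toll-family receptor) and pirk (an inhibitor of the Imd pathway). The list's median was 0.01, and the log2 ratio was 0.08 for each of the transcription factors dl and Rel, 0.04 for the kinase gene IKKbeta and -0.20 for cact, which holds dl back.

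The protease gene grass was at 17.2, 21.3 and 19.9 in the controls, 4.72, 6.57 and 4.50 in HP1a RNAi and 15.4, 8.16 and 11.0 in Su(var)3-9 RNAi. Spn27A was at 67.4, 69.5 and 83.5, then 35.2, 27.5 and 32.7, then 58.8, 58.3 and 59.8. For both, the HP1a RNAi values lay below those of Su(var)3-9 RNAi, while the rule itself set the knockdown values below the controls. The serpin Spn77Ba was even across the 6 libraries, all between 12.1 and 14.1, against 22.5, 22.0 and 24.0 in the controls. The other immune members had log2 ratios of -0.72 for vir-1, a gene induced by virus infection, -0.67 for pirk, -0.62 for PGRP-SA and -0.61 for Tollo.

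**Figure D3:**
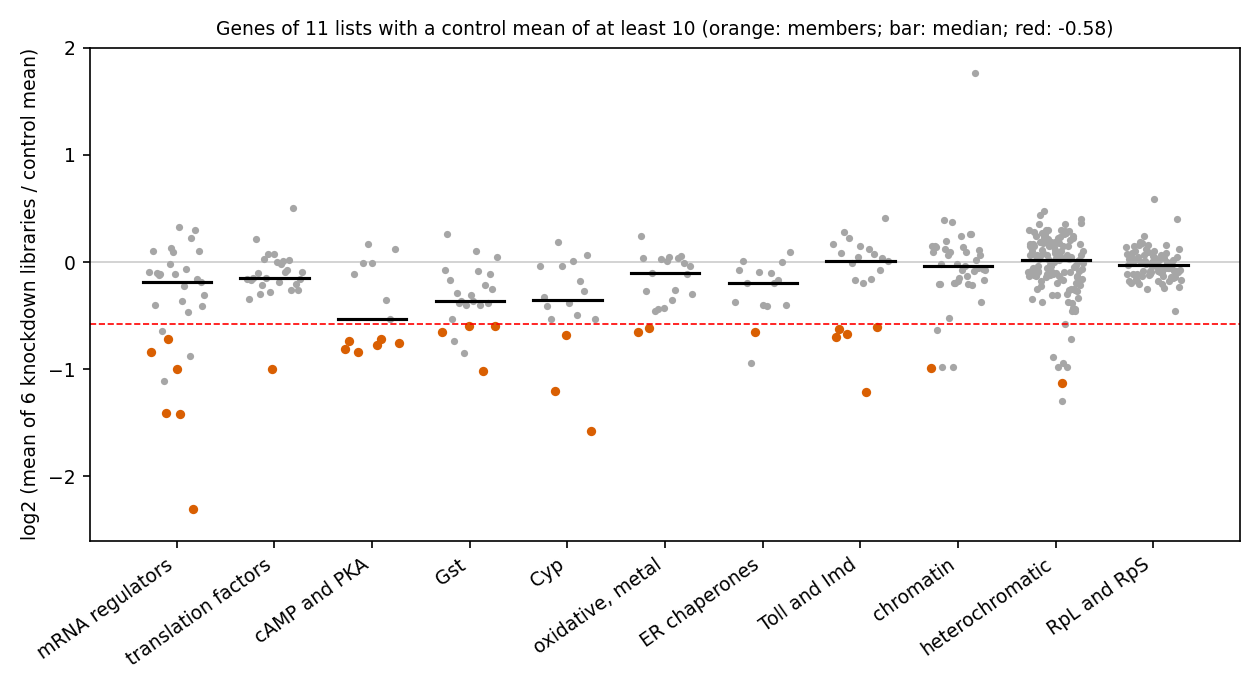
Log2 ratio of the mean of the 6 knockdown libraries to the control mean for genes of 11 lists with a control mean of at least 10; each dot is a gene (orange, member), bars are list medians and the red dashed line is the threshold of -0.58. The medians lie at -0.53 for the cyclic AMP list and at -0.36 for the Gst and Cyp families, and close to 0 for the heterochromatic and ribosomal protein genes; the dot at 1.76 in the chromatin list is the HP1a gene.

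A further 63 members had no role assigned here, among them the 48 known only by a CG or CR number, and 10 of the 20 lowest ratios belonged to numbered genes. CG41348 had the lowest ratio of all members, at -2.39. It was at 7.56, 18.5 and 28.6 in the controls, 3.95, 1.47 and 3.60 in HP1a RNAi and 3.82, 1.71 and 6.25 in Su(var)3-9 RNAi, so its controls varied more than the other groups. CG10063 followed Unr at -2.10, then CG2865 at -1.95 and CG12560 at -1.93. CG12560 had controls of 17.1, 13.9 and 15.9 and knockdown values between 0.983 and 6.36, the widest gap of any member.

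The other numbered genes among the 20 lowest were also low in abundance. CG34056 had a log2 ratio of -1.88, CG30016 -1.74, CG34136 -1.52, CG3397 -1.50, CG31815 -1.42 and CG32115 -1.39. Obp44a, an odorant-binding protein gene, had -1.73, and the ubiquitin-conjugating enzyme gene Ubc84D had -1.33. CG30016 was listed at 0 in Su(var)3-9 RNAi replicate 1 and at 9.58 and 9.27 in replicates 2 and 3, and Cys, a cystatin-like protease inhibitor gene, was listed at 0 in replicate 3 of that group. With GstD7 these were the only members with a 0 in any library.

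Abundant members without an assigned role were CG17646, an ABC transporter gene, scf and Drat. CG17646 was at 778, 865 and 1118 in the controls, 576, 504 and 513 in HP1a RNAi and 729, 669 and 606 in Su(var)3-9 RNAi. For Drat the values were 221, 224 and 246, then 100, 110 and 108, then 122, 104 and 119, which made it 2.08-fold lower with little spread in any group. scf was at 443 ± 78.2, 260 ± 22.1 and 324 ± 9.93.

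Heterochromatic genes were the subject of the study. Of 138 genes of the study's heterochromatic list with a control mean of at least 10, only CG30440 was a member, and 1 lay below and 7 above the control in all 6 libraries. The shares over all genes were 2.33% for the rule, 4.72% below and 4.3% above. The counts of the list are small and were not tested against these shares, so they are a description. CG30440 was at 13.4, 10.4 and 7.53 in the controls, 5.11, 5.30 and 4.23 in HP1a RNAi and 2.58, 4.08 and 7.30 in Su(var)3-9 RNAi. The list's median was 0.02. There was also no member among 20 nuclear pore genes, 30 genes of ubiquitin, proteasome and autophagy, 23 of ribosome biogenesis or 24 of amino acid supply.

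The rule did not select on the difference between the knockdown groups. It did use their values, since all 6 had to lie below the controls, which limits how far the groups can differ in a member, so the counts over members are a description. HP1a RNAi was compared with Su(var)3-9 RNAi with limma on log2(rescaled TPM + 1) over 8072 coding genes, a scale that understates changes of low genes. At a Benjamini-Hochberg adjusted p-value under 0.05, 3 genes (0.0372%) were called. They were the targets CG8409 and CG6476 and l(3)neo43, which was listed at 0 in the Su(var)3-9 RNAi libraries. None of the 137 members, all of which were tested, was called. At an unadjusted limma p-value under 0.05 there were 14 members (10.2%), against 596 of all genes (7.38%). Of these 14 members, 11 were lower in HP1a RNAi and 3 in Su(var)3-9 RNAi. Over all 137 members, 51 had the lower mean in HP1a RNAi. The split was not computed for the 596 genes, so the 11 and 3 have no background to be read against. The median 95% interval of a member's difference, not adjusted for the number of genes, reached 0.56 to either side with 3 libraries a group. It is not a limit of detection for the calls. CG34136, with a difference of 1.03, was not called after adjustment, while GstD1 at -0.30 was among the 14 members at a low unadjusted p. The labels do not say that replicates were separate cultures, and the p-values measure the spread between these libraries.

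The smallest p-value of a member was at Spn27A. Its log2 difference, HP1a RNAi minus Su(var)3-9 RNAi, was -0.88 (SE 0.11, limma adjusted p = 0.0733), and all 3 HP1a RNAi values lay below the 3 others. The adjusted p ranged from 0.0381 to 1.00 over the alternative settings and libraries left out, and it passed when all 9 libraries entered the fit. Galt, which the RefSeq order places next to Spn27A, differed by -0.50 (limma adjusted p = 0.503). The other members at a low unadjusted p that were lower in HP1a RNAi included scf (-0.32), GstD1 (-0.30), CG17646 (-0.33), grass (-0.97), MsrA (-0.40) and Cyp6a8 (-0.80). Lower in Su(var)3-9 RNAi were CG34136 (1.03), the tetraspanin gene Tsp42Ea (0.48) and CG6356 (0.42). None of these passed adjustment.

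**Figure D4:**
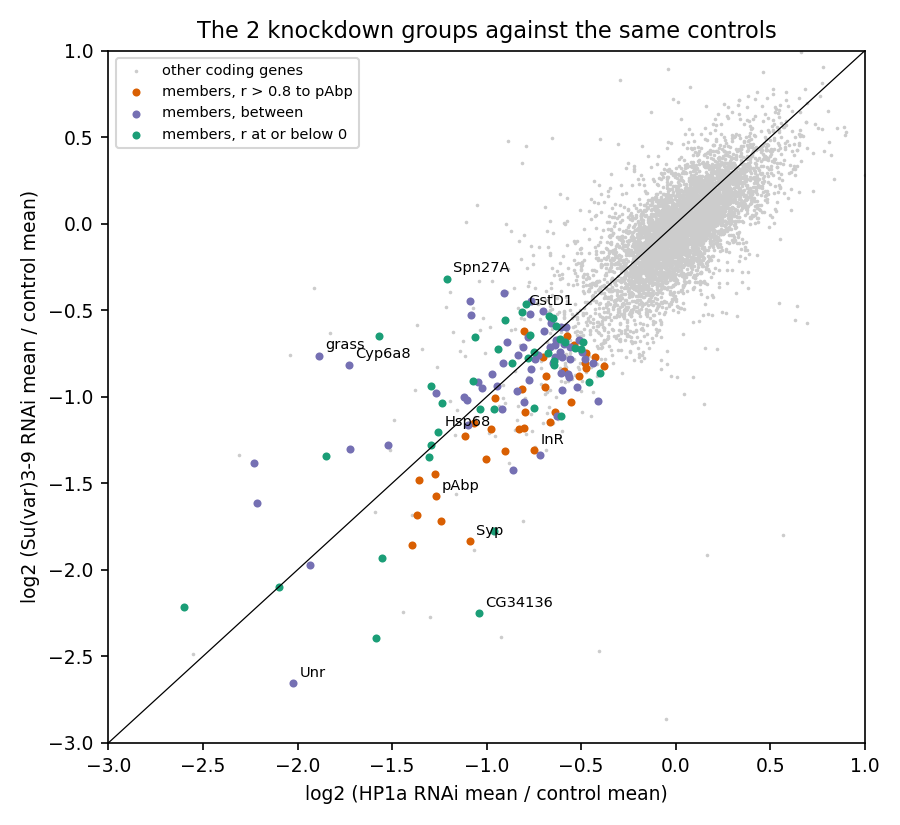
Log2 ratio of the Su(var)3-9 RNAi mean (vertical) and of the HP1a RNAi mean (horizontal) to the control mean, which both axes share; grey dots are other coding genes with a control mean of at least 10, coloured dots are the members by likeness to pAbp, and 20 other genes fall outside the axes. Members like pAbp lie mostly below the diagonal, that is, lower in Su(var)3-9 RNAi, and Spn27A, grass and Cyp6a8 lie above it.

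The members differed in how they varied between replicates of a group. For each gene the deviations of log2(rescaled TPM + 1) from the group means were correlated with those of pAbp over the 9 libraries. The rule set the order of the groups but not that of replicates within a group, and the values are descriptive, since genes share libraries and the rescaling. Of 136 other members, 33 (24.3%) had a Pearson r over 0.8 to pAbp, as had 253 (4.09%) of all 6181 genes. Most like pAbp were fax and Gbeta13F (0.957 each), eIF4H1 (0.955), Hrb27C (0.952), Pits (0.946), Pka-C1 (0.945), scyl (0.938) and kek1 (0.937). At the other end were Spn77Ba (-0.869), Hsp68 (-0.832), GstO3 (-0.827) and pirk (-0.805).

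These profiles followed particular libraries. HP1a RNAi replicate 2 was the highest of its group in 67 of the 136 members (49.3%) and in 28.6% of all genes. Su(var)3-9 RNAi replicate 3 was the highest in 83 members (61.0%) and in 49.5% of all genes, and control replicate 2 in 70 (51.5%) and 38.6%. Coding genes held 10.2%, 14.2% and 10.9% of TPM in these 3 libraries, which was the lowest share of the HP1a RNAi group, the highest of the Su(var)3-9 RNAi group and the lowest of the control. The part of this share in the profile was not tested.

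Counting pAbp, 34 members had a profile with r over 0.8. Their median log2 ratio to the control mean was -0.78, -0.46 and -1.23 in HP1a RNAi replicates 1 to 3 and -1.74, -1.24 and -0.49 in Su(var)3-9 RNAi. The distance from the control thus differed between libraries of a group, most of all in Su(var)3-9 RNAi. This set was picked for replicate deviations like those of pAbp, so its uneven medians follow from the sorting. For the 41 members with r at or below 0 the medians were even, at -0.77, -0.96 and -0.84 and at -0.69, -0.85 and -0.94. The first set had a median length of 3028 bases and the second of 1151 bases. All genes with r over 0.8 to pAbp had a median length of 3405 bases and a median log2 ratio to the control of -0.33, with 204 of the 253 below 0.

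Roles were divided between these sets. An r over 0.8 was found in 5 of the 10 RNA-binding members, pAbp included, in 8 of the 11 transcription regulators and in 10 of the 15 signalling genes, and none of these 3 roles had a gene at or below 0. None of the 11 detoxification and redox genes or the 7 immune genes reached 0.8, and 6 and 5 of them lay at or below 0. As roles were assigned with the values known, these counts describe the list only.

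**Figure D5:**
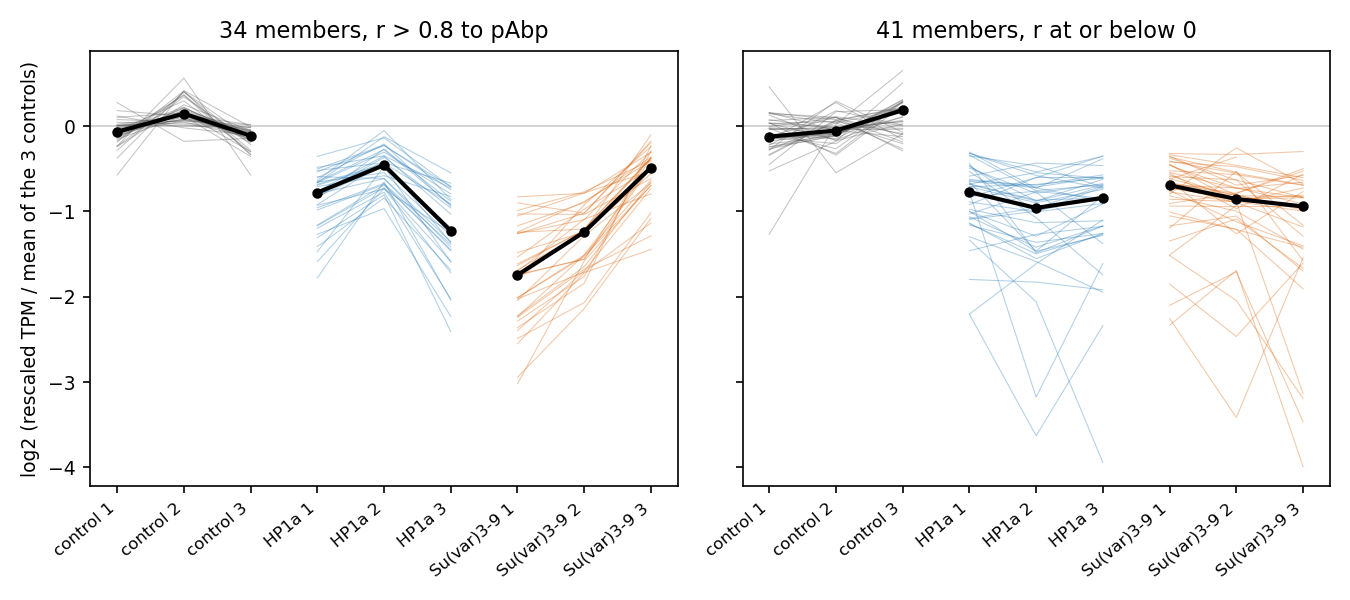
Log2 ratio to the control mean of the 34 members with r over 0.8 to pAbp (left) and the 41 with r at or below 0 (right) by library; thin lines join the values of a gene within a group and black points are medians. On the left the medians of the knockdown libraries run from -1.74 to -0.46, and on the right from -0.96 to -0.69. The sets were sorted on replicate deviations within the groups, so this contrast follows from the sorting.

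At the transcript level, 75 members had a single annotated transcript and 62 had several, up to 13 in sgg. In 38 of the 62 the transcript with the largest share in the control was itself below the control in all 6 libraries. Of 172 transcripts of members with a control mean of at least 10, 121 were below in all 6. These include the only transcript of each of the 75 members, which carries the gene's own values and lay below by the rule. The share over all transcripts was not computed, so the counts are a description. In Hrb27C the transcript CG10377-RA held 97.9% of the gene in the control, 98.6% in HP1a RNAi and 95.9% in Su(var)3-9 RNAi, so its level is that of the gene. Hsc70-3 differed. CG4147-RC was at 437 ± 223, 185 ± 32.0 and 244 ± 60.5 in the 3 groups, and CG4147-RA was at 268 ± 18.9, 249 ± 27.5 and 223 ± 13.7. The split between transcripts is an estimate by the authors' software and is less certain than the gene total.

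The RefSeq gene order held 4 pairs of neighbouring members, which were Galt with Spn27A, CG2065 with Rdh1, Pabp2 with Obp44a and eIF4EHP with Syx1A. How many such pairs other sets of 137 genes would hold was not computed, so the count is a description. CG2065 and Rdh1 both belong to a family of retinol dehydrogenase-like enzymes, and reads may be shared between similar or overlapping neighbours.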

How the data were processed

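Total RNA of *Drosophila* S2 cells was sequenced with 3 libraries in each of 3 groups (control, HP1a RNAi, Su(var)3-9 RNAi), taken from the sample labels. The authors trimmed reads with Cutadapt, aligned them with STAR to dm3 and quantified them with RSEM, and deposited TPM per gene and per transcript. TPM hold no depth, so the precision of a value is known from replicates only. The authors' tables of their own comparisons (posterior probabilities and fold changes) were not used.

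Genes with a CG identifier were taken as coding and rescaled to 1000000 per library. Ratios to the control are of group means without pseudocount. HP1a RNAi was compared with Su(var)3-9 RNAi with limma 3.58.1 in R 4.3.3 (eBayes with trend, two-sided) on log2(rescaled TPM + 1), for genes with a mean of at least 1 over the 9 libraries. The fit was tested on simulated data. Python 3.11.15 served for tables (pandas 2.3.3 with numpy 2.4.6) and for figures (matplotlib 3.10.9).

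Names and neighbours came from a RefSeq table of a later genome release: of the coding identifiers, 12957 matched a locus tag, 628 a synonym and 503 none. No coordinates or sequences are given.

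The members and gene lists were chosen with earlier results of these data known. Named genes were the 20 lowest ratios, the 10 highest control means, members in a list, called members, the genes at the threshold and the targets. Genes named by role, gap or profile were added after values were seen. Alternatives were TPM as deposited, size factors, rescaling without abundant genes, other floors, ratios and pseudocounts, no filter, all libraries in one fit, a replicate block and each library left out.
The value of 1 member is not reported here.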

Additional observations from a re-analysis of the deposited data

How the results depend on the processing

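The number of members was 137. It was 314 with TPM as deposited, 251 with a log2 ratio at or under -0.3, 41 at or under -1 and 282 when groups could overlap. Leaving out 1 library gave 125 to 225 genes, with 223 without control replicate 1 and 225 without control replicate 3. Of the 137, 132 and 116 were among these, and 83 met the rule without each library in turn. Rescaling without mitochondrially encoded and ribosomal protein genes, chosen after the data were seen, gave 104, all of them members. The members' median log2 ratio for HP1a RNAi was -1.16 with TPM as deposited and otherwise stayed near -0.78. Single members' ratios ranged from -2.76 to -0.41 over the 1781 values computed, all below 0. The rule fixes this sign whenever a library is left out, so only the values under other scalings could have changed it.

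For HP1a RNAi against Su(var)3-9 RNAi, the 3 genes called by limma became 6 with TPM as deposited, 8 with size factors, 6 without a filter and 10 with all 9 libraries in one fit, and 2 to 5 with 1 library left out. Leaving out a control changed this only through which genes were tested. With all 9 libraries in one fit 1 member, Spn27A, was called, and in every other setting run 0 members were. Same-numbered libraries of the knockdown groups did not deviate together (r of -0.08, -0.03 and -0.21), so the numbers were not taken as pairs, and a replicate block gave 2 called genes and 0 members. The cause of these shifts was not tested. Low members, 38 of them under a control mean of 20, rest on an unknown number of reads.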
